A study of Mus musculus with 2 samples.

Results

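The family C genes of the V2R receptors are the 7 genes *Vmn2r1* to *Vmn2r7*. They were taken by their symbols from a count table of 32285 genes, which also holds 117 other *Vmn2r* genes. The cells came from the whole vomeronasal organ (VNO) of C57BL/6J wild-type male mice at postnatal day 60, prepared as 2 samples with 10000 cells targeted in each. The cells came from 5 mice in total, the labels do not tie a sample or a cell to any of them, and no group differed in genotype or treatment. Each sample gave 1 droplet-based library, called replicate 1 and replicate 2 here, in which each captured mRNA molecule carries a molecular tag, its UMI. Nothing says that the libraries came from separate animals, so the p-values below measure the spread between these libraries, which may be technical.

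V2R receptors are large G protein-coupled receptors of vomeronasal sensory neurons (VSNs) and bind peptide and protein pheromones. Neurons of the basal layer use the G protein subunit Gαo and express V2R genes, whereas neurons of the apical layer use Gαi2 and express V1R genes (*Vmn1r*). A basal neuron is known to express mostly 1 gene of the many clade A, B and D V2R genes together with 1 or more family C genes, whose products are regarded as broadly shared partners of the more specific receptors.

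After the filter, 10592 of 24084 barcodes were kept, 5694 of replicate 1 and 4898 of replicate 2, with medians of 6668 and 6650.5 UMIs. The libraries shared 33 barcode sequences, 3 of them among kept cells. Cells were clustered without vomeronasal receptor genes, and the members therefore played no part in naming a class. The classes used here were mature basal VSN-like (104 cells, 53 and 51 by replicate), mature apical VSN-like (511), immature basal VSN-like (156) and immature apical VSN-like (215). The names fitted the markers, as *Gnao1*, which encodes Gαo, stood at 345.5 and 360.0 CPM (UMIs of a gene per 1e6 UMIs of the sum) in mature basal and at 1.98 and 3.48 CPM in mature apical cells. *Gnai2*, which encodes Gαi2, stood at 3698 and 3935 CPM in mature apical cells and was still at 110.4 and 40.4 CPM in mature basal cells. All 5 apical markers had UMIs in the mature basal class, with a summed level of 184.8 and 106.5 CPM against 4860 and 5088 CPM in the mature apical class, and the part of apical RNA in the results below was not tested.

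The 7 genes lay next to each other on chromosome 3 (GRCm38, GENCODE M21), in a stretch of 763 kb with 23 annotated genes, 13 of them pseudogenes. *Vmn2r1* was at chr3:64081547-64109484 on the plus strand and all other members were on the minus strand. *Vmn2r2* was at chr3:64115278-64141928, *Vmn2r3* at chr3:64257215-64289709 and *Vmn2r4* at chr3:64383044-64415368. *Vmn2r5* was at chr3:64488609-64509842, *Vmn2r6* at chr3:64531310-64565830 and *Vmn2r7* at chr3:64685044-64844765. *Vmn2r7* was the only member with an annotated overlap on the same strand, with the processed transcript *Gm26939* and the pseudogene *Vmn2r-ps12*, neither of which is a row of the count table.

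The coding sequences of GENCODE M21 held 6 coding exons each and between 2724 bases (*Vmn2r2*) and 2745 bases (*Vmn2r7*). Their identity bears on every count below, because near-identical copies can take each other's reads. *Vmn2r1* shared 84.4 to 88.0% of aligned bases with the other members (median 85.7%, 6 pairs), and *Vmn2r2* to *Vmn2r7* shared 86.8 to 98.8% with each other (median 88.7%, 15 pairs). *Vmn2r6* and *Vmn2r7* were the closest pair at 98.8%, followed by *Vmn2r4* with *Vmn2r7* at 97.3% and *Vmn2r4* with *Vmn2r6* at 96.8%. *Vmn2r2* and *Vmn2r5* shared 93.3%. Against the coding sequences of 114 other *Vmn2r* genes the members shared only 43.1 to 49.9% (median 44.6%, 798 pairs). A stretch of 60 coding bases, aligned across all members, shows how near the copies are. It is coding bases 637 to 696 of *Vmn2r7* and is read 5′ to 3′, with capitals marking the bases that differ from *Vmn2r7*:
Vmn2r1: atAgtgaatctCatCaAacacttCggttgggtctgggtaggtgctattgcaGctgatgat
Vmn2r2: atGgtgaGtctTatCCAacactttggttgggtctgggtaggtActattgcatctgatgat
Vmn2r3: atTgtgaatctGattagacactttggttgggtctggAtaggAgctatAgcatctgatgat
Vmn2r4: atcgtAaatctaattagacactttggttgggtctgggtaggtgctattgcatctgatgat
Vmn2r5: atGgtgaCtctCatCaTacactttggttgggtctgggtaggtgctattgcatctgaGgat
Vmn2r6: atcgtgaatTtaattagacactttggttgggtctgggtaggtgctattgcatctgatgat
Vmn2r7: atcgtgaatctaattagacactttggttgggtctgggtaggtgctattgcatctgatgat

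In this stretch *Vmn2r4* and *Vmn2r6* each differed from *Vmn2r7* at 1 base, and *Vmn2r1* at 6. The libraries were read from the 3′ end, where the copies were easier to tell apart. Of the 90-base windows in the last 500 bases of the transcript, none was shared exactly with another *Vmn2r* transcript for *Vmn2r1*, *Vmn2r2*, *Vmn2r3*, *Vmn2r5* and *Vmn2r6*, but 14.4% were for *Vmn2r4* and 15.3% for *Vmn2r7*. Within the coding sequence the shared part reached 39.2% for *Vmn2r6* and 48.3% for *Vmn2r7*, so counts of these members stay uncertain to the extent that reads fell there.

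**Figure D1:**
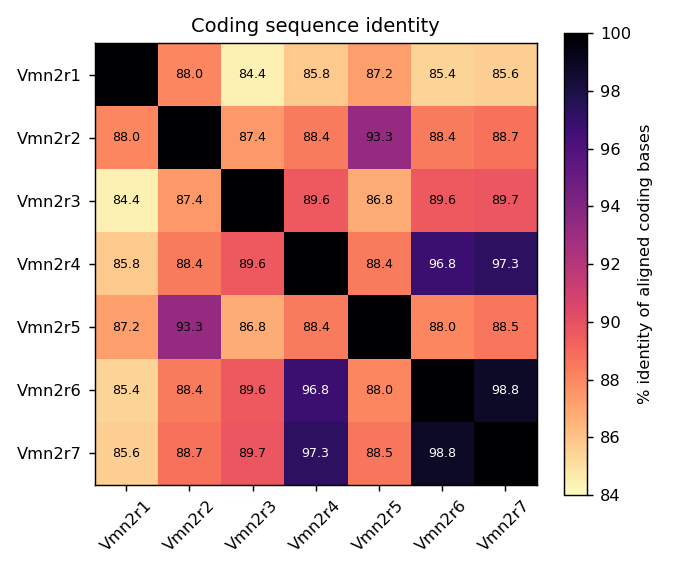
Percent identity of aligned coding bases for each pair of the 7 members (colour and printed values). *Vmn2r4*, *Vmn2r6* and *Vmn2r7* form the closest trio, between 96.8 and 98.8%, and *Vmn2r1* is at most 88.0% identical to any other member.

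All members but *Vmn2r5* were readily detected in mature basal cells, and *Vmn2r7* had the highest level. A UMI counts a molecule once at its 3′ end, so levels of different genes were compared as CPM and not divided by length. *Vmn2r7* stood at 366.3 and 383.3 CPM in replicates 1 and 2, and *Vmn2r6* at 294.2 and 248.6 CPM. *Vmn2r2* stood at 199.0 and 189.8 CPM, and *Vmn2r4* at 225.3 and 122.5 CPM. The replicates of *Vmn2r7* lay above those of *Vmn2r6*, which lay above those of all other members, whereas the range of *Vmn2r4* spanned that of *Vmn2r2*. *Vmn2r1* stood at 140.0 and 175.1 CPM and *Vmn2r3* at 132.3 and 123.7 CPM, again within or at the edge of the range of *Vmn2r4*. *Vmn2r5* was the exception, with 5 UMIs in a single cell of replicate 1 and none in replicate 2. Of the 2261 member UMIs of the class, 28.7% were *Vmn2r7*, 20.9% *Vmn2r6*, 14.9% *Vmn2r2*, 13.5% *Vmn2r4*, 12% *Vmn2r1*, 9.82% *Vmn2r3* and 0.221% *Vmn2r5*.

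Each of the 104 mature basal cells held at least 1 UMI of a member. *Vmn2r7* was found in 61 cells, *Vmn2r1* in 59, *Vmn2r2* and *Vmn2r6* in 48 each, *Vmn2r3* in 35 and *Vmn2r4* in 24. The share with *Vmn2r7* was 58.7% (exact 95% interval 48.6 to 68.2%) at a median of 17026 UMIs per cell, against 0.237% of 1685 macrophage-like cells at a median of 4512 UMIs. For *Vmn2r1* it was 56.7% (46.7 to 66.4%) against 0.178%. No member exceeded 0.674 CPM in macrophage-like cells, and the shares in mature basal cells were thus far above free RNA. Intervals cover counting error only.

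The members were not found at the same stages. In immature basal cells *Vmn2r1* was seen with few or no UMIs of the others, as the plot of levels along the basal branch shows. In early VSN-like cells (143) *Vmn2r1* stood at 4.96 and 9.39 CPM, close to its level in immature apical cells (5.02 and 4.93 CPM) and in precursor-like cells (4.76 and 3.02 CPM). These levels rested on 9, 10 and 3 UMIs in that order, and whether they exceeded background was not tested. The 12 named non-neuronal classes together stood at 0.052 and 0.867 CPM. The highest of them, T cell-like cells, had 0 and 7.96 CPM, from 4 UMIs in 2 cells. In early VSN-like cells *Vmn2r2* and *Vmn2r3* had 1 UMI each, and *Vmn2r4* to *Vmn2r7* had no UMI, which allows up to 2.41 CPM each. In the earlier part of the immature basal class (103 cells) *Vmn2r1* stood at 17.2 and 41.8 CPM, *Vmn2r2* had 1 UMI, and none of the other 5 members had a UMI. In its later part (53 cells) *Vmn2r1* stood at 55.9 and 82.6 CPM. There *Vmn2r2* stood at 31.97 and 0 CPM and *Vmn2r3* at 15.98 and 0 CPM, with most of these UMIs in 1 cell of replicate 1 that held 17 member UMIs. *Vmn2r7* had 1 UMI, and *Vmn2r4*, *Vmn2r5* and *Vmn2r6* had none, which allows up to 5.39 CPM each. In the whole immature basal class *Vmn2r1* made up 74.7% of 79 member UMIs and was found in 36 of 156 cells.

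**Figure D2:**
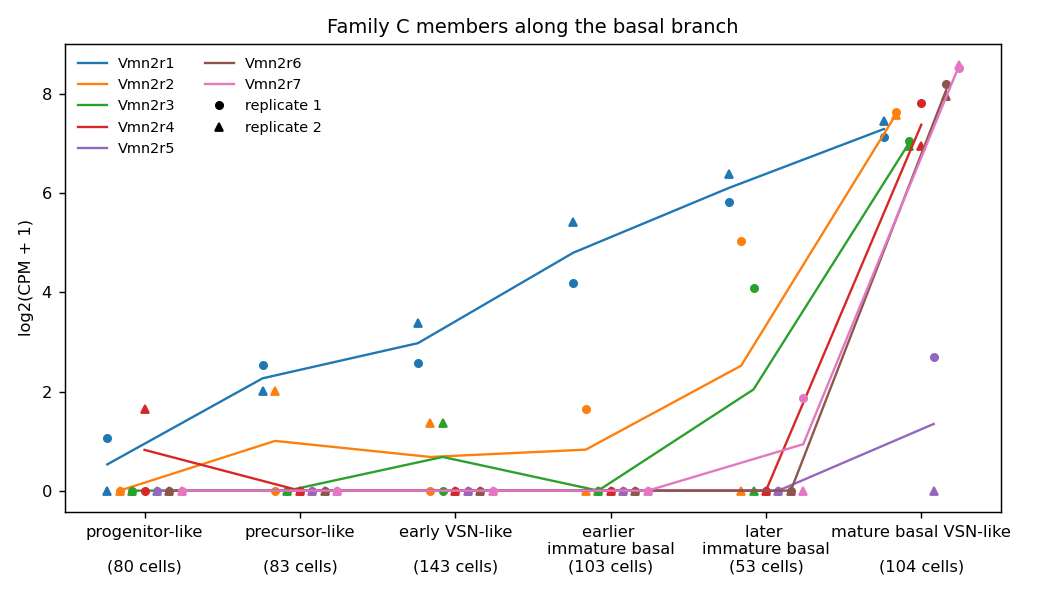
Level of each member on the log2(CPM + 1) scale (y axis) in 6 classes from progenitor-like to mature basal VSN-like cells (x axis). Circles are replicate 1, triangles replicate 2, and lines join the means of both. *Vmn2r1* stands at 34.5 and 55.5 CPM over the whole immature basal class, whereas *Vmn2r4*, *Vmn2r6* and *Vmn2r7* are at or near 0 until the mature class.

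The first comparison asked how the members differ between the mature branches. UMIs were summed per replicate and class and tested by quasi-likelihood in edgeR, and p-values were adjusted by Benjamini-Hochberg over 12173 genes. All 6 members with enough UMIs were higher in mature basal than in mature apical cells, where 6.28% of all genes tested were higher in mature basal and 4.3% in mature apical cells. *Vmn2r1* had 128 and 143 UMIs in the basal sums and 0 and 1 in the apical sums, a ratio of 1082 (counting interval 192.5 to 42870, adjusted p = 1.04e-05). *Vmn2r2* (ratio 1345, interval 239.8 to 53280, adjusted p = 4.06e-06) and *Vmn2r4* (1221, interval 217.6 to 48390, adjusted p = 4.41e-05) also had 1 UMI each in the apical sums. The other 3 were clearly present in both branches. *Vmn2r6* was 52.3-fold higher in basal cells (log2 fold change 5.81 ± 0.35 SE, adjusted p = 5.69e-05), and its log2 fold change was 6.86 without mature apical replicate 1 and 5.30 without replicate 2. *Vmn2r7* was 17.6-fold higher (4.21 ± 0.13, adjusted p = 3.75e-06) and *Vmn2r3* 8.36-fold higher (3.16 ± 0.19, adjusted p = 5.51e-05). *Vmn2r5* had too few UMIs to be tested. In all genes 1289 passed the threshold of 0.05, and 2701 did so with the library as a block, but each of the 6 members kept its call in all 14 alternatives. In a bulk sum, fewer cells with a gene and less RNA per cell cannot be told apart. By cell, *Vmn2r7* was in 58.7% of mature basal and 8.22% of mature apical cells, with medians of 11 and 2.5 UMIs where found. For *Vmn2r6* it was 46.15% and 3.52% (medians 9 and 1), and for *Vmn2r3* 33.65% and 5.09% (6 and 1.5). Both the shares and the medians were thus lower in apical cells, at median depths of 17026 and 13570 UMIs.

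The genes that work beside these receptors were read from lists chosen with earlier results of these data known. Of 9 tested genes of the H2-Mv list, the non-classical MHC class I genes of basal neurons and their partner *B2m*, 7 were higher in mature basal cells, with a median log2 fold change of 9.49, or 8.20 with genes absent from 1 class at their lower bound, against −0.042 over all genes. *H2-M10.5* reached 526.0 and 336.8 CPM in basal cells, with 2 UMIs in all apical cells. Of 15 signalling and chaperone genes, 6 were higher and 4 lower in basal cells (median 0.15), the former including *Gnao1* (log2 fold change 7.12 ± 0.20, adjusted p = 2.10e-06) and the chaperones *Calr4* (1.66 ± 0.09, adjusted p = 3.64e-05) and *Hspa5* (1.64 ± 0.08, adjusted p = 1.85e-05). The G protein subunit gene *Gng13* was lower (−4.14 ± 0.09, adjusted p = 9.58e-07). Of the formyl peptide receptor genes, 2 were tested and 0 passed, with 0 at an unadjusted p under 0.05 and 0 with DESeq2. Of 56 other *Vmn2r* genes tested, 27 were higher in basal cells and none was lower. Such a receptor rests on few cells and passes the filter on UMIs through the branch in which they fall. The lack of lower genes is therefore a description and not separate support for a difference between the branches.

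The second comparison made the same contrast in immature cells (10900 genes), and here only *Vmn2r1* of 3 tested members passed the threshold, where 3.38% of all genes were higher in immature basal cells and 6.75% differed in either direction. *Vmn2r1* stood at 34.5 and 55.5 CPM in immature basal and at 5.02 and 4.93 CPM in immature apical cells, an 8.58-fold difference (log2 fold change 3.17 ± 0.41, adjusted p = 6.87e-04). The replicates of both classes did not overlap. *Vmn2r2* had 13 and 0 UMIs in immature basal and 1 and 0 in immature apical cells (log2 fold change 3.90 ± 1.38, adjusted p = 0.132; 0.00501 with the library as a block). *Vmn2r3* had 6 and 0 UMIs against 5 and 1 (0.57 ± 1.05, adjusted p = 0.837). The call on *Vmn2r1* rested on both immature apical libraries, since without replicate 1 or 2 of that class its log2 fold change was 3.19 or 3.13 with an adjusted p of 0.346 or 0.392. In those fits edgeR called 0 of all genes, with 1159 and 1226 at an unadjusted p under 0.05, against 736 in the full fit, 328 with DESeq2 and 1569 with the block. Of 15 signalling and chaperone genes 5 were higher and 3 lower in immature basal cells (median −0.225, all genes −0.009). The single H2-Mv gene tested, *B2m*, was higher (1.35 ± 0.31, adjusted p = 0.0225) but did not pass with DESeq2. The single formyl peptide receptor gene tested did not pass (0 also at an unadjusted p under 0.05 and with DESeq2). Of 33 other *Vmn2r* genes 21 were higher and none was lower. Here too the few cells of a receptor decide the branch through which it passes the filter on UMIs. These counts are therefore a description as well.

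The third comparison set mature against immature basal cells (10733 genes). All 6 tested members were higher in mature cells, where 18.7% of all genes were, and they differed widely in size. *Vmn2r1* rose 3.66-fold, from 34.5 and 55.5 CPM to 140.0 and 175.1 CPM (log2 fold change 1.86 ± 0.25, adjusted p = 1.37e-04). *Vmn2r2* rose 20.7-fold (4.41 ± 0.51, adjusted p = 4.11e-05) and *Vmn2r3* 29.5-fold (4.87 ± 0.48, adjusted p = 1.14e-05). Immature replicate 1, mostly a single cell, set the size of both folds, which were 10.21 and 9.61 on the log2 scale without it and 3.62 and 4.12 without replicate 2. For the last 3 members the immature class had 1 UMI or none. *Vmn2r7* had 1 UMI in immature and 648 in mature basal cells, a ratio of 517 (counting interval 92.5 to 20450, adjusted p = 9.44e-09). *Vmn2r4* was at least 81.4-fold higher (adjusted p = 1.66e-06) and *Vmn2r6* at least 125.5-fold higher (adjusted p = 4.12e-08) than a floor of 3 UMIs over the immature class. Whether the members differed from each other in their rise was not tested. Without replicate 1 of the mature basal class, *Vmn2r1*, *Vmn2r2* and *Vmn2r3* lost their calls in a fit with 1 library in that class. Their log2 fold changes there were 2.03, 4.36 and 4.81. With DESeq2, *Vmn2r2* had an adjusted p of 0.0806 and 1808 genes passed in place of 3803.

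Other basal genes also differed between the stages. Of 9 H2-Mv genes 8 were higher in mature basal cells (median log2 fold change 7.39, or 6.78 with genes absent from 1 class at their lower bound, against −0.008 over all genes), as were 11 of 15 signalling and chaperone genes (median 1.36), 2 of which were lower. *Calr4* was 3.54-fold higher (1.87 ± 0.13, adjusted p = 6.03e-07), *Gnao1* did not pass (−0.40 ± 0.15, adjusted p = 0.0522), and *Calr* was 3.84-fold lower (−1.90 ± 0.30, adjusted p = 4.87e-04). No formyl peptide receptor gene had enough UMIs to be tested. Of 68 other *Vmn2r* genes, 43 were higher and 11 lower in mature cells, but only 11 of the 68 passed with DESeq2. Each such receptor rests on few cells, which also decide the stage through which it passes the filter on UMIs.

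Within single mature basal cells the members fell into sets. A *Vmn2r1* cell was defined as one with at least 3 member UMIs of which at least 75% were *Vmn2r1*, and a *Vmn2r2* to *Vmn2r7* cell as one with at most 25%. There were 33 *Vmn2r1* cells (19 and 14 by replicate), 51 *Vmn2r2* to *Vmn2r7* cells (27 and 24), 9 mixed cells (3 and 6) and 11 cells with fewer UMIs. All 11 of the last held *Vmn2r1* and no other member. *Vmn2r1* cells held few member UMIs, with a median of 6 and a range of 3 to 13, and 27 of 33 had no UMI of any other member. *Vmn2r2* to *Vmn2r7* cells held a median of 34, with a range of 4 to 117, and 45 of 51 had no *Vmn2r1* UMI. Both counts follow in part from the limits of 75% and 25%. A *Vmn2r1* cell with 3 member UMIs, for example, can hold no other member. Median depths were 16136 and 17873 UMIs, and Scrublet called no doublet among either. Yet 1 of the former and 2 of the latter held 10 or more *Vmn1r* UMIs, with up to 428 in a cell, and leaving such cells out gave 44 genes in place of 46 past the threshold between the groups.

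**Figure D3:**
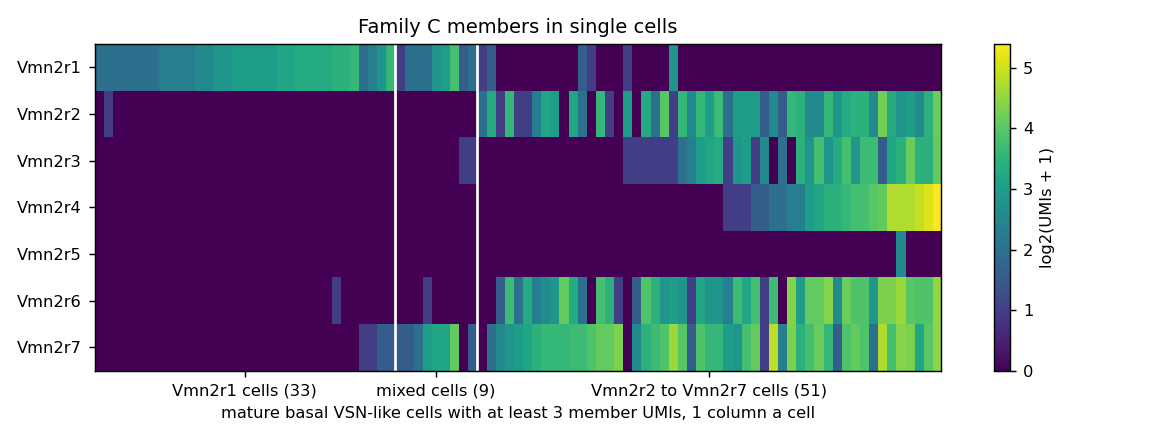
UMIs of each member (rows, colour as log2(UMIs + 1)) in the mature basal cells with at least 3 member UMIs, 1 column a cell, in the order 33 *Vmn2r1* cells, 9 mixed cells and 51 *Vmn2r2* to *Vmn2r7* cells. Within each group cells are sorted by *Vmn2r4* first. The separation of *Vmn2r1* from the other rows follows from how the groups were defined, whereas *Vmn2r4* fills 24 of the last 51 columns and *Vmn2r7* fills 49.

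UMIs of *Vmn2r1* and of any other member were together in 21 of 104 mature basal cells (20.2%, exact interval 12.96 to 29.2%; 9 of 53 and 12 of 51 by replicate). With at least 3 UMIs of each kind it was 7 cells (6.73%, 2.75 to 13.4%), 1 in replicate 1 and 6 in replicate 2. The 21 cells were 21 of the 59 mature basal cells with *Vmn2r1*. Over all 260 basal cells of both stages the share was 8.85%, or 4.49% among 245 cells thinned to 5000 UMIs each, but 149 of the 156 immature cells in these totals held fewer than 3 member UMIs.

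*Vmn2r2* to *Vmn2r7* were shared by the same cells. A *Vmn2r2* to *Vmn2r7* cell held a median of 4 members (2 to 6), and 47 of 51 held 3 or more. After thinning, 35 of 49 cells still held 3 or more, with a median of 3. *Vmn2r7* was in 49 of the 51 cells (median 12 UMIs, highest 28), *Vmn2r2* in 47 (median 7, highest 18) and *Vmn2r6* in 46 (median 8, highest 23). *Vmn2r3* was in 33 and *Vmn2r4* in 24, and the 1 cell with *Vmn2r5* also held the 5 others. *Vmn2r7* was thus near universal in this group, and *Vmn2r4* was found in fewer than 1 in 2 of its cells.

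All 24 cells with *Vmn2r4* also held *Vmn2r2* and *Vmn2r7*, 23 held *Vmn2r6*, 22 held *Vmn2r3*, and none held *Vmn2r1*. As *Vmn2r7*, *Vmn2r2* and *Vmn2r6* were in 49, 47 and 46 of all 51 *Vmn2r2* to *Vmn2r7* cells, these counts show no order for them. *Vmn2r3* was in 11 of the 27 such cells without *Vmn2r4*. Of 35 cells with *Vmn2r3*, 33 held *Vmn2r7* and 32 *Vmn2r2*, but only 22 held *Vmn2r4*. The most common sets in a cell were *Vmn2r1* alone (38 cells, 19 in each replicate), *Vmn2r2*, *Vmn2r3*, *Vmn2r4*, *Vmn2r6* and *Vmn2r7* (20 cells, 10 in each), *Vmn2r1* with *Vmn2r7* (11), *Vmn2r2*, *Vmn2r6* and *Vmn2r7* (10), and the same with *Vmn2r3* (8). The first and the second had the same count in both replicates.

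*Vmn2r1* with *Vmn2r7* was the main form of overlap. Among the 9 mixed cells, 8 held *Vmn2r7*, none held *Vmn2r2* or *Vmn2r4*, and *Vmn2r3* and *Vmn2r6* had at most 1 UMI in any of them. In several the 2 genes had like counts. *Vmn2r44* and *Vmn2r78* were each the leading other receptor in 2 mixed cells, and the remaining mixed cells all carried different receptors. With *Vmn2r78* as the leading other receptor, 1 cell of replicate 1 had 6 *Vmn2r1* and 8 *Vmn2r7* UMIs, and 1 cell of replicate 2 had 13 and 16. A *Vmn2r58* cell had 7 and 8, and the *Vmn2r44* cells had 1 and 2, and 3 and 3. These receptors were singled out after their values were seen. A further mixed cell carried 256 UMIs of the apical receptor *Vmn1r89* and 38820 UMIs in all, and whether it was more than 1 cell was not tested.

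Which other *Vmn2r* genes went with which members was asked over all basal cells, 38 *Vmn2r1* cells (20 and 18) and 52 *Vmn2r2* to *Vmn2r7* cells (28 and 24), on UMIs summed per replicate and group. Since the members define the groups, their own differences are not results. Of 8934 genes, 46 (0.515%) passed the threshold, 10 (0.112%) higher in *Vmn2r1* cells and 36 (0.403%) higher in *Vmn2r2* to *Vmn2r7* cells, and 6 of the 46 were members. Among 50 other *Vmn2r* genes tested, 12 passed, 5 higher in *Vmn2r1* cells and 7 in *Vmn2r2* to *Vmn2r7* cells. All 12 had no UMI in the other group. A receptor of few cells passes the filter of 10 UMIs through the group in which its cells fall. All 50 had an unadjusted p under 0.05, where 707 of all 8934 genes did. Neither the 0 in the other group nor the number of calls is therefore support for a tie to the members. With the library as a block 302 genes passed, 151 to 223 passed when 1 of the 4 sums was left out, and DESeq2 called 57, 19 of them higher in *Vmn2r1* cells.

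*Vmn2r20* had 238 and 288 UMIs in *Vmn2r1* cells, at least 274.2-fold higher than a floor of 3 UMIs over the other group (adjusted p = 1.42e-05). *Vmn2r83* had 260 and 125 UMIs (at least 200.7-fold, adjusted p = 1.22e-04) and *Vmn2r18* 215 and 106 (at least 167.3-fold, adjusted p = 1.28e-04). *Vmn2r96* (adjusted p = 5.28e-04) and *Vmn2r22* (adjusted p = 0.0404) were also found in *Vmn2r1* cells of both replicates. On the other side, *Vmn2r88* had 743 and 883 UMIs in *Vmn2r2* to *Vmn2r7* cells (at least 346.6-fold, adjusted p = 1.21e-05). *Vmn2r-ps159*, annotated as protein coding, had 588 and 245 UMIs (at least 177.6-fold, adjusted p = 2.31e-04) and *Vmn2r39* 331 and 125 (at least 97.2-fold, adjusted p = 7.99e-04). *Vmn2r43*, *Vmn2r48*, *Vmn2r66* and *Vmn2r114* were the other 4, with adjusted p from 2.62e-04 to 0.0229. A receptor is carried by few cells, so each sum rests on a handful of them at most. For *Vmn2r83* (260 and 125 UMIs) and *Vmn2r66* (86 and 70 UMIs) each sum was a single cell. Their p-values thus rest on 1 cell per replicate and do not measure a spread between cells. With limits of 90% and 10% in place of 75% and 25%, *Vmn2r83* and *Vmn2r96* lost their calls (adjusted p 0.246 and 0.24).

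Of the 10 other *Vmn2r* genes with most UMIs in basal cells, 5 did not pass, and 1 library held nearly all UMIs of each. *Vmn2r30* had 1090 and 1 UMIs, *Vmn2r36* 825 and 25, *Vmn2r89* 731 and 35 and *Vmn2r13* 443 and 0, all in *Vmn2r2* to *Vmn2r7* cells, and *Vmn2r105* had 586 and 0 in *Vmn2r1* cells. None of the 5 had a UMI in the other group. Their adjusted p ran from 0.129 to 0.411, and from 4.45e-127 to 9.22e-63 with the library as a block. With DESeq2, *Vmn2r105* and *Vmn2r13* passed (adjusted p = 1.58e-04 and 3.24e-04) and the 3 others did not.

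**Figure D4:**
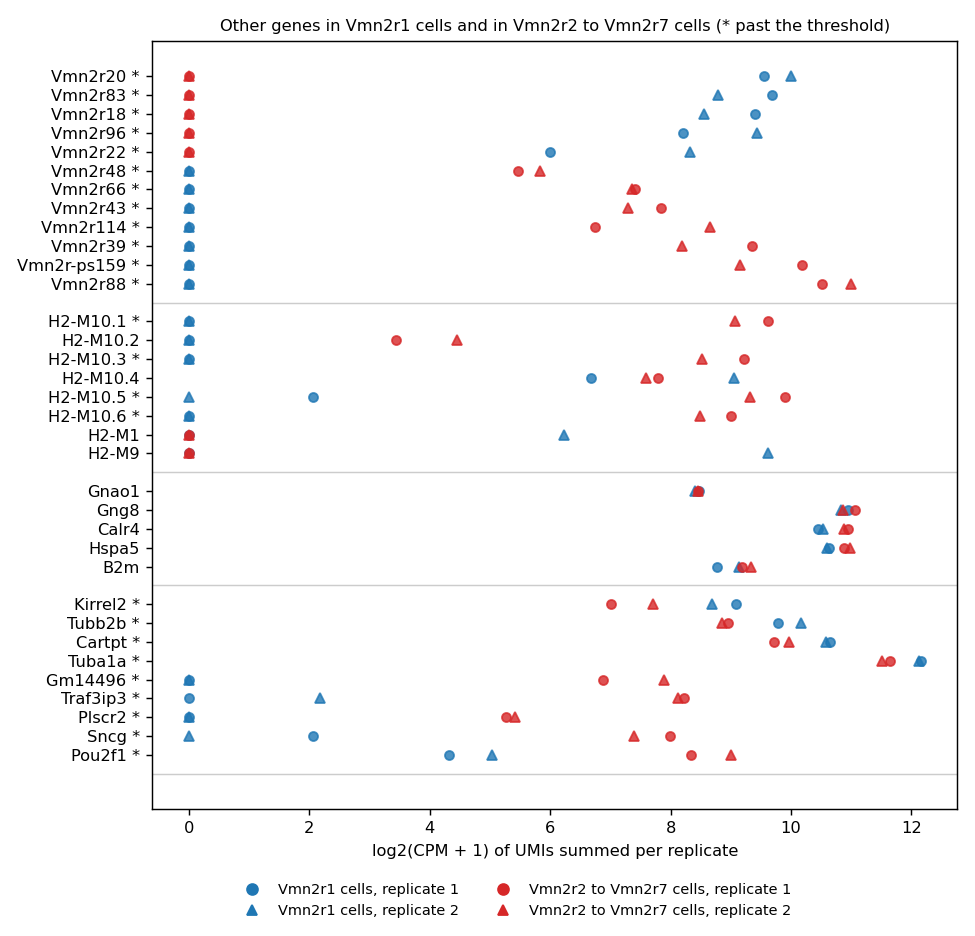
Levels on the log2(CPM + 1) scale (x axis) of UMIs summed over *Vmn2r1* cells (blue) and *Vmn2r2* to *Vmn2r7* cells (red), with circles for replicate 1 and triangles for replicate 2; an asterisk marks genes past the threshold. From the top the blocks are other *Vmn2r* genes past the threshold, H2-Mv genes, signalling genes, and other named genes. Each of the 12 receptors is at 0 in 1 group, which a receptor of few cells can reach by the filter on UMIs, while *Gnao1* and *Gng8* lie together.

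The same could be read cell by cell. A principal receptor was the vomeronasal receptor gene other than a member that held at least 10 UMIs and at least 50% of such UMIs in a cell. Of 104 mature basal cells, 94 had a principal *Vmn2r* gene, and 53 different genes were principal. The leading other *Vmn2r* gene had a median of 121.5 UMIs against 11 for all members together, and only 13 cells had a second one with at least 10 UMIs. Mixed cells and cells with fewer than 3 member UMIs were left aside. Then 17 principal receptors were found in 2 or more grouped cells, 46 cells in all, and for all 17 these cells were in the same group. Few cells of a receptor can also share a group by chance, for which no expectation was computed. A *Vmn2r39* cell left aside held 1 *Vmn2r1* UMI and no other member, beside 3 *Vmn2r2* to *Vmn2r7* cells of that receptor. *Vmn2r20* was in 4 *Vmn2r1* cells, *Vmn2r-ps159* in 5 and *Vmn2r114* in 4 *Vmn2r2* to *Vmn2r7* cells, and *Vmn2r44* and *Vmn2r78* were in 2 mixed cells each. *Vmn2r108*, *Vmn2r116* and *Vmn2r118* each had 1 mixed cell beside 1 grouped cell.

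The filter on mitochondrial UMIs had removed many more neurons, and these cells were not used in the grouping above. They come from the same libraries and are not a separate experiment. Among cells over the limit of 5%, 189 had a principal *Vmn2r* gene (103 and 86, median 7064 UMIs), and 97 of them had at least 3 member UMIs. Of the latter 39 were *Vmn2r1* cells, 46 *Vmn2r2* to *Vmn2r7* cells and 12 mixed cells. Mixed cells were left out of the next share even where their receptor had been placed, as for 2 of 3 *Vmn2r79* cells. The share is therefore one of grouped cells only and would be lower with mixed cells counted. Of the 85 grouped cells, 64 had any of 26 receptors already placed in mature basal cells. Among these 64, 58 were in the same group (90.6%, exact interval 80.7 to 96.5%; 32 of 35 and 26 of 29 by replicate). Among the cells over the limit alone, 18 receptors were found in 2 or more grouped cells, and for 14 of them these cells were in the same group. The 6 of the 64 cells that were in the other group carried *Vmn2r39*, *Vmn2r42*, *Vmn2r59*, *Vmn2r79*, *Vmn2r83* and *Vmn2r117*. Of these 6 cells, 5 had only 3 or 4 member UMIs. Of 6 *Vmn2r78* cells over the limit, 3 again held both members in like numbers, with 7 *Vmn2r1* and 6 *Vmn2r7* UMIs, 4 and 5, and 7 and 6, and no other member. The single *Vmn2r58* cell over the limit had no *Vmn2r1* and 1 *Vmn2r7* UMI, and the single *Vmn2r44* cell held neither.

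Among signalling genes no difference passed the threshold. *Gnao1* stood at 353.3 and 339.3 CPM in *Vmn2r1* cells and at 351.1 and 347.8 CPM in *Vmn2r2* to *Vmn2r7* cells (log2 fold change −0.06 ± 0.16, adjusted p = 0.959). Of 15 signalling and chaperone genes 0 passed with edgeR, with 4 at an unadjusted p under 0.05 and 0 with DESeq2 (median −0.08, all genes −0.008). Among those 4, *Calr4* stood at 1438 against 1931 CPM (−0.47 ± 0.10, adjusted p = 0.124) and *Gng13* at 148.3 against 35.2 CPM (1.98 ± 0.52, adjusted p = 0.261). No formyl peptide receptor gene was tested.

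Of the H2-Mv genes, 4 of 9 tested were higher in *Vmn2r2* to *Vmn2r7* cells and none higher in *Vmn2r1* cells (median −5.58, or −1.58 with genes absent from 1 group at their lower bound). *H2-M10.1* had 399 and 231 UMIs in *Vmn2r2* to *Vmn2r7* cells and none in *Vmn2r1* cells, at least 134.3-fold higher (adjusted p = 4.67e-05). *H2-M10.3* was at least 98.1-fold higher (adjusted p = 1.28e-04) and *H2-M10.6* at least 88.0-fold higher (adjusted p = 1.03e-04). *H2-M10.5* had 756 UMIs against 1, a ratio of 483.5 (counting interval 86.5 to 19120, adjusted p = 3.59e-05). These 4 kept their calls in all alternatives that gave a value. Yet *H2-M10.1*, *H2-M10.3* and *H2-M10.6* passed the filter of 10 UMIs only through *Vmn2r2* to *Vmn2r7* cells. Their 0 in *Vmn2r1* cells is therefore not support for a tie to the members. The *H2-M10.1* sums also rest on few cells. It reached 3 UMIs in 9 mature cells with *Vmn2r4* and 1 without it, with up to 131 UMIs in a cell. *H2-M10.4* was found on both sides, with 32 and 150 UMIs in *Vmn2r1* cells and 112 and 83 in *Vmn2r2* to *Vmn2r7* cells (0.55 ± 0.55, adjusted p = 0.859). Its direction hung on 1 library, with 1.32 (adjusted p = 2.55e-07) without replicate 1 of the *Vmn2r1* cells and −1.08 (adjusted p = 0.0144) without replicate 2. *H2-M9* (221 UMIs) and *H2-M1* (21 UMIs) were found only in *Vmn2r1* cells of replicate 2 (adjusted p = 0.325 and 0.477).

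By the rule for other genes, 4 were named as higher in *Vmn2r1* cells and 5 as higher in *Vmn2r2* to *Vmn2r7* cells. The former were *Kirrel2*, a cell adhesion molecule of the immunoglobulin family (480.0 against 165.2 CPM, 1.46 ± 0.25, adjusted p = 0.0469), the tubulin genes *Tubb2b* (1.03 ± 0.15, adjusted p = 0.0229) and *Tuba1a* (0.51 ± 0.09, adjusted p = 0.0443), and *Cartpt*, which encodes a neuropeptide precursor (0.72 ± 0.12, adjusted p = 0.0404). All 4 lost their calls after thinning to 5000 UMIs per cell (adjusted p = 0.215, 0.0638, 0.0805 and 0.257 in that order). *Tubb2b* and *Tuba1a* also lost them when only mature basal cells were used (adjusted p = 0.399 and 0.341). The latter included *Pou2f1*, which encodes an octamer-binding transcription factor (6 and 9 UMIs against 163 and 221, 16.4-fold in CPM, adjusted p = 3.74e-04), *Sncg*, which encodes gamma-synuclein (1 UMI against 201, ratio 128.5, counting interval 22.8 to 5102, adjusted p = 4.29e-04), and *Traf3ip3* (1 UMI against 270, ratio 172.7, interval 30.7 to 6845, adjusted p = 1.12e-04). *Gm14496* was at least 34.3-fold higher (adjusted p = 0.00311) and *Plscr2* at least 7.89-fold higher (adjusted p = 0.0377). Neither had a UMI in *Vmn2r1* cells, so both passed the filter on UMIs only through the other group. *Pou2f1* and *Traf3ip3* kept their calls in every alternative that gave a value.

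*Vmn2r4* divided the *Vmn2r2* to *Vmn2r7* cells, and for several principal receptors all cells of a receptor were on the same side. The 24 cells with *Vmn2r4* held a median of 19219 UMIs and the 27 without it 17376. *Vmn2r3* was in 22 of the former and 11 of the latter. All 5 *Vmn2r-ps159* cells held *Vmn2r4* (2 to 34 UMIs), as did all 3 *Vmn2r88* cells (4 to 26), all 3 *Vmn2r30* cells (4 to 16) and both *Vmn2r89* cells (26 and 41). It was not seen in any of 3 *Vmn2r39*, 2 *Vmn2r66* or 1 *Vmn2r51* cells. Other receptors were split, with *Vmn2r4* in 1 of 4 *Vmn2r114* cells (1 UMI) and 1 of 3 *Vmn2r13* cells (3 UMIs). Cells over the mitochondrial limit gave a like picture, with *Vmn2r4* in 3 of 3 *Vmn2r-ps159*, 8 of 9 *Vmn2r88* and 2 of 4 *Vmn2r30* cells, and in none of 1 *Vmn2r39*, 2 *Vmn2r66* and 3 *Vmn2r51* cells.

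Among the H2-Mv genes, *H2-M10.1*, *H2-M10.3*, *H2-M10.5* and *H2-M10.6* were found in more cells with *Vmn2r4* than without it. With at least 3 UMIs, *H2-M10.6* was in 19 of 24 cells with *Vmn2r4* (79.2%, exact interval 57.9 to 92.9%) and 3 of 27 without (11.1%, 2.35 to 29.2%). *H2-M10.1* was in 9 and 1 of these cells, *H2-M10.5* in 12 and 5, and *H2-M10.3* in 21 and 15. None of the 4 reached 3 UMIs in any of 33 *Vmn2r1* cells. *H2-M10.4* was instead found in 3 cells with *Vmn2r4*, 2 without it and 3 *Vmn2r1* cells. *H2-M1*, *H2-M9* and *H2-M11* reached 3 UMIs only in *Vmn2r1* cells (2, 2 and 1 cells), and *H2-M10.2* did so in none of these groups. Cells are not replicates, so these counts carry no test. *Vmn2r88* and *Vmn2r89* are both on chromosome 14, and cells with the same receptor are not independent of each other.

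Members were not confined to the basal branch. In mature apical cells *Vmn2r7* stood at 19.6 and 23.7 CPM, *Vmn2r3* at 16.8 and 13.2 CPM and *Vmn2r6* at 7.18 and 2.44 CPM. *Vmn2r1*, *Vmn2r2*, *Vmn2r4* and *Vmn2r5* had 1 UMI each in 511 cells. Of the 293 member UMIs in this class 50.2% were *Vmn2r7*, 36.2% *Vmn2r3* and 12.3% *Vmn2r6*. The mixture thus differed from that of mature basal cells, where *Vmn2r2* and *Vmn2r4* each held over 13% of the UMIs.

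At least 2 member UMIs were found in 43 of 511 mature apical cells (8.42%, exact interval 6.16 to 11.2%; 23 of 291 and 20 of 220 by replicate) at a median depth of 13570 UMIs. The same was seen in 1 of 1685 macrophage-like cells at 4512 UMIs and in 0 of 284 sustentacular-like cells at 11221.5 UMIs. Of the 43 cells, 1 also held 3 or more UMIs of other *Vmn2r* genes and Scrublet called 1 a doublet.

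These cells gathered on a few V1R genes. Of 110 *Vmn1r* genes that were principal in a mature apical cell, 21 had such a cell. *Vmn1r39* had 9 among 11 cells (5 of 7 and 4 of 4 by replicate), and its 11 cells held 35 *Vmn2r7* and 7 *Vmn2r6* UMIs. All 3 *Vmn1r197* cells held *Vmn2r3* alone, with 20 UMIs in the cell of replicate 1 and 10 and 13 in those of replicate 2. *Vmn1r192* and *Vmn1r219* had 3 among 3 cells each. In contrast, *Vmn1r35* had none among 24 cells and *Vmn1r37* none among 22. These receptors were singled out after their values were seen, so their counts are a description. Over the mitochondrial limit the same count was 5 of 19 cells for *Vmn1r39*, 7 of 10 for *Vmn1r197*, 8 of 14 for *Vmn1r192*, 5 of 10 for *Vmn1r219*, 4 of 58 for *Vmn1r35* and 1 of 65 for *Vmn1r37*.

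Cells over the mitochondrial limit were again looked at with the receptors already sorted. For the 21 genes, 83 of 214 such cells had at least 2 member UMIs (38.8%, exact interval 32.2 to 45.7%; 39 of 112 and 44 of 102 by replicate), and for the 89 other genes 62 of 1107 (5.60%, 4.32 to 7.12%; 26 of 561 and 36 of 546). A further 23 genes were principal only in cells over the limit, with 12 of 88 such cells (13.6%, 7.25 to 22.6%). Of all 157 such cells over the limit, 27 also held 3 or more UMIs of other *Vmn2r* genes, whose part in the shares was not tested. By the chromosome of the receptor, the share was 40.0% of 50 kept cells with a *Vmn1r* gene of chromosome 13 (interval 26.4 to 54.8%) and 35.2% of 176 cells over the limit (28.2 to 42.8%). It was 9.83% of 173 and 7.51% of 413 for chromosome 6, 2.56% of 156 and 6.61% of 560 for chromosome 7, and 1.52% of 66 and 8.72% of 172 for chromosome 17. Chromosome 13 thus stood above the 3 others in both sets of cells. The intervals treat cells as independent, which cells with the same receptor are not, so these shares are a description. By receptor, 11 of 22 *Vmn1r* genes of chromosome 13 had a kept cell with at least 2 member UMIs. It was 6 of 33 for chromosome 6, 3 of 42 for chromosome 7 and 1 of 13 for chromosome 17.

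**Figure D5:**
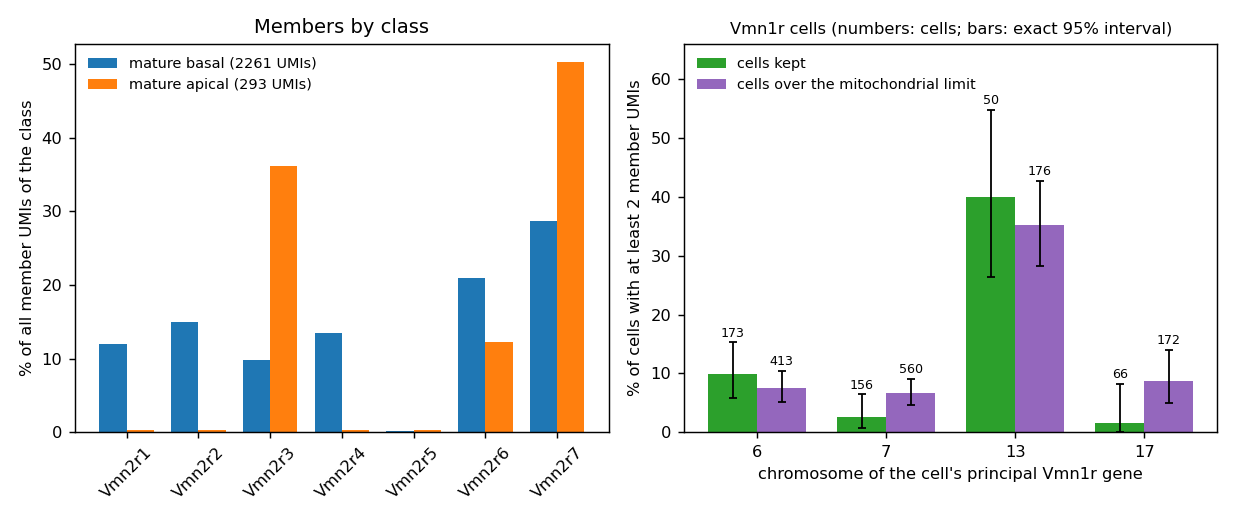
Left, the percentage of all member UMIs that each member took in mature basal (2261 UMIs) and mature apical cells (293 UMIs). Right, the percentage of cells with at least 2 member UMIs by the chromosome of the principal *Vmn1r* gene, in kept cells and in cells over the mitochondrial limit, with exact 95% intervals and numbers of cells. *Vmn2r3*, *Vmn2r6* and *Vmn2r7* make up nearly all member UMIs of apical cells, and chromosome 13 stands highest in both sets.

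Lastly, genes were ranked by how alike their levels were to those of the members over 19 cell classes, among 15898 genes. The classes share libraries and differ in depth, so the values of Pearson's r are descriptions. For *Vmn2r1* the leading genes were *Wscd2* (r = 0.951), *Tfap2e* (0.938), which encodes the basal transcription factor AP-2ε, *Vmn2r92* (0.908), *Vmn2r114* (0.902) and *Vmn2r82* (0.9). For the sum of *Vmn2r2* to *Vmn2r7* they were *C430002N11Rik* (0.951), *Faim2* (0.937), *Lrriq4* (0.935), *Steap1* (0.925) and *Glt1d1* (0.917). Lists of 5 among 15898 genes can easily have no gene in common, so their lack of overlap is not a result. The ranking over classes did not follow which member a cell held. *Vmn2r114*, in the list of *Vmn2r1*, had 228 UMIs in *Vmn2r2* to *Vmn2r7* cells and none in *Vmn2r1* cells. Over both replicates *Tfap2e* stood at 305.6 CPM in immature and 136.9 CPM in mature basal cells, and *Faim2* at 10.14 and 73.9 CPM, levels that were given no test here.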

How the data were processed

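Whole VNO cells of 2 samples were profiled with 3′ 10x Genomics chemistry. Per the submitters' processing notes, the authors ran bcl2fastq, Cell Ranger 4 (mm10) and Seurat 3.2.3, and they deposited raw UMI counts per gene and barcode after merging with aggr, whose depth setting no source used here gives. Libraries held 108005626 and 95442231 UMIs. The suffix of a barcode gave its library.

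Filters required 3 cells per gene and, per cell, 200 to 9000 genes and a mitochondrial share of UMIs no higher than 5%. Seurat 5.3.0 (R 4.3.3) clustered all cells (2000 variable genes, 30 principal components, resolution 0.8) and then neurons (15 components, resolution 1.0), without vomeronasal receptor genes. Classes were named where at least 3 markers were raised, and named neuron clusters were split into earlier and later parts. Scrublet (scanpy 1.11.5) called doublets, which were kept.

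UMIs summed per library and class were tested with edgeR 4.0.16 (TMM, glmQLFit, glmQLFTest) over genes with at least 10 UMIs, and called at a Benjamini-Hochberg adjusted p under 0.05. The script was tested on simulated data. SE came from the fold change and F statistic. Intervals are exact (Clopper-Pearson). Annotation was GENCODE M21 (32158 of 32285 IDs matched), and MAFFT 7.526 aligned coding sequences. Members and lists were chosen with earlier results of these data known. Named genes were the members, the H2-Mv, formyl peptide receptor and signalling lists and, between *Vmn2r1* and *Vmn2r2* to *Vmn2r7* cells, other *Vmn2r* genes past the threshold (10 with most UMIs), the 10 with most UMIs in basal cells, and up to 5 further genes per direction that changed alike in both libraries. *Vmn2r22* and *Vmn2r48* fall outside that rule and were named after their values were seen. Definitions of principal receptors, the division by *Vmn2r4* and the receptors of apical cells were also chosen after seeing the data. Alternatives included DESeq2 1.42.0, no filter, filterByExpr, thinning, other limits and leaving out each library. Sums with the same number share a capture and library, so an alternative blocked on the library. Deviations of same-library sums correlated across genes at 0.026 to 0.112.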

Additional observations from a re-analysis of the deposited data

Results flagged for a closer look

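Cells that the mitochondrial limit removed entered no comparison, other than an alternative with a limit of 10%, and they held member UMIs. Of those with a principal *Vmn2r* gene, 97 had at least 3 member UMIs, and of 1409 with a principal *Vmn1r* gene 157 had at least 2 (72 and 85 by replicate). Among the latter, 27 also held 3 or more UMIs of other *Vmn2r* genes. In 1685 kept macrophage-like cells 1 cell had at least 2 member UMIs and none had 3.

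Cells of clusters that could not be named in the clustering of all cells held 1724 member UMIs and entered no comparison either. They were signalled as data left out of the comparisons. A further 210 neurons without a class name held more, led by *Vmn2r7* (35 UMIs), *Vmn2r6* (18) and *Vmn2r1* (17). Which cells they came from was not tested.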

How the results depend on the processing

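All values rest on 2 libraries that may share animals, on near-identical genes, and on few cells. No call on a member between mature basal and mature apical cells was lost in 14 alternatives, in which *Vmn2r1* ranged from 6.31 to 11.29 and *Vmn2r7* from 4.03 to 4.37 on the log2 scale. The number of genes past the threshold moved more than the members did. For mature basal against mature apical cells (1289) it was 2701 with the library as a block, 2164 with no filter and 561 after thinning, and 1281 to 1598 without 1 library. For the immature branches (736) it was 1569 with the block, 328 with DESeq2, 437 with neurons split by UMIs, and 0 to 979 without 1 library. For mature against immature basal cells (3803) it was 3749 with the block, 1808 with DESeq2, 2281 after thinning, and 482 to 3500 without 1 library. For *Vmn2r1* against *Vmn2r2* to *Vmn2r7* cells (46) it was 302 with the block, 78 with filterByExpr, 255 with no filter, 29 after thinning, 24 with at least 10 member UMIs, 9 in immature cells only, and 151 to 223 without 1 library. The fit with at least 10 member UMIs had 0 and 4 *Vmn2r1* cells by replicate, and that in immature cells only had 1 and 4 *Vmn2r1* cells against 1 and 0 others, so lost or reversed calls there say nothing about a gene. The cause of the other moves was not tested. The share of basal cells with *Vmn2r1* and another member (8.85%) was 4.62% at 2 UMIs, 2.69% at 3, 4.49% after thinning, and 7.64 to 10.34% without 1 library.

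*Vmn2r2* in the immature branches passed with the block (0.00501), no filter, neurons split by UMIs and without immature basal replicate 2. Of the genes named between *Vmn2r1* and *Vmn2r2* to *Vmn2r7* cells, 428 values kept their side of the threshold, 33 passed it newly and 23 lost it. The 5 that reversed were *Tubb2b* at −0.44 and *Cartpt* at −0.37 and *Tuba1a* at −0.32 in immature cells only, *Tubb2b* at −0.072 with at least 10 member UMIs, and *H2-M10.4* at −1.08 without *Vmn2r1* cells replicate 2, which was 1.32 without replicate 1. The block changed no other call on a member, and the 5 receptors of mostly 1 library passed with it. Leaving out cells with 10 or more *Vmn1r* UMIs, an alternative added after seeing the data, gave 1377, 3724 and 44 genes.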

Other observations

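The principal receptors of the groups were on partly the same chromosomes, as a description of mature basal cells. *Vmn2r1* cells used 10 receptors of chromosome 17 in 12 cells, 3 of chromosome 7 in 5 cells, 2 of chromosome 6 in 5 cells, 1 of chromosome 5 in 3 cells and 2 of chromosome 10 in 3 cells. *Vmn2r2* to *Vmn2r7* cells used 12 receptors of chromosome 7 in 18 cells, 5 of chromosome 17 in 8 cells, 4 of chromosome 5 in 6 cells, 2 of chromosome 14 in 5 cells, 1 of chromosome 4 in 5 cells, 2 of chromosome 10 in 2 cells and 1 of chromosome X in 2 cells. Receptors of chromosomes 5, 7, 10 and 17 were thus found in both groups.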
